A study of Mus musculus with 44 samples.

Results

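The CC chemokines described here are 10 genes of the mouse macrophage, Ccl2, Ccl3, Ccl4, Ccl5, Ccl6, Ccl7, Ccl8, Ccl9, Ccl12 and Ccl22, chosen by symbol from the 24940 genes listed in 4 tables of RNA-seq counts. All 10 were listed in each table and passed the filter on low counts in each. The RNA came from bone marrow-derived macrophages (BMDMs), which are grown in culture from mouse marrow, and the 44 libraries form 22 groups of 2. In the NCoR table (24 libraries), the macrophages were NCoR flox/flox without Cre (WT) or NCoR flox/flox with LysMCre (NKO). Both received vehicle (Veh), KLA, poly I:C (PolyIC), IFNβ (IFNb) or IL4 for 6 h, or RANKL for 12 h. KLA (Kdo2 lipid A) is the active part of bacterial lipopolysaccharide and triggers TLR4, poly I:C is a synthetic double-stranded RNA sensed by TLR3, IFNβ is a type I interferon, IL4 is a cytokine of alternative activation and RANKL is the cytokine that drives osteoclast formation. In the RGFP966 table (6 libraries), wild type macrophages received vehicle (Veh), KLA or KLA with RGFP966, an inhibitor of the deacetylase HDAC3. In the TBK1i table (6 libraries), wild type macrophages received vehicle (DMSO_Veh), KLA (DMSO_KLA) or KLA together with a TBK1 kinase inhibitor (TBK1i_KLA). In the Pgc1b table (8 libraries), Pgc1b flox/flox macrophages without Cre (Pgc1b_flox) or with LysMCre (Pgc1b_flox_Cre) received vehicle or KLA. Vehicle or KLA in these 3 tables lasted 6 h. By the paper's methods, the inhibitors were added with the serum starvation of 12 h that came before KLA. No group received an inhibitor without KLA, so a change already present before KLA cannot be told apart from a change in the KLA response. LysMCre is driven by the Lyz2 gene and deletes in cells of the myeloid lineage, and no group carries Cre without floxed alleles, so Cre itself and the deletion cannot be told apart. The library names give the strain as C57Bl6 in all groups but NKO_KLA, WT_RANKL and NKO_RANKL, whose own names give none. The labels give no age, the methods describe marrow of young adult C57BL/6 mice, and the labels do not say whether the 2 libraries of a group came from separate animals, so p-values measure the spread between libraries.

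CC chemokines are small secreted proteins with a pair of adjacent cysteines near the amino end, and they draw leukocytes along gradients through G protein-coupled receptors. Ccl2, Ccl7 and Ccl12 are monocyte attractants that act through Ccr2, and Ccl8 belongs to the same monocyte chemoattractant group. Ccl3 and Ccl4 are the macrophage inflammatory proteins, and Ccl5 (RANTES) attracts T cells and monocytes. Ccl6 and Ccl9 are rodent chemokines of the Ccr1 ligand group that resting macrophages already make. Ccl22 attracts T cells that carry Ccr4. In macrophages, several of these genes are classical targets of TLR signalling through NFκB, and some also respond to type I interferon.

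Depth and identity were checked first. Each library held 8323493 to 16783155 gene counts. A group with 3 counts or fewer in both libraries was taken as at the floor. Before TMM scaling, 3 counts corresponded to 0.179 to 0.36 CPM, and such floors cover counting error only. CPM, as edgeR computes them, are counts relative to the TMM-scaled library size within each table. The 7 macrophage markers summed to 4583 to 11514 CPM and none was at 0 in any library. Ncor1, the deleted gene of the NKO groups, was lower in NKO under all 6 treatments, with log2 differences from -1.41 to -1.78. Ppargc1b, which encodes PGC1β, was not called lower with LysMCre in the Pgc1b table (log2 0.38 ± 0.27 in KLA), where a count over the whole gene need not show a partial deletion, whereas Lyz2 was lower there, with log2 differences of -0.90 in vehicle and -0.87 in KLA. Date stamps in the library names place WT_KLA 115 days and the RANKL libraries 536 days before the vehicle libraries, and NKO_KLA 1401 days before WT_KLA. Xist exceeded Y-linked counts in 34 libraries, and the reverse held in 10, which are both NKO_KLA libraries and all 8 of the Pgc1b table. The column headers call the RANKL-treated cells osteoclasts, and the 8 neutrophil and precursor markers summed to 1303 to 1832 CPM in the 4 RANKL libraries against 1.34 to 22.8 CPM in the other 40. The 5 osteoclast markers summed to 90.4 to 111 CPM in the RANKL libraries and to 53.8 to 176 CPM over all libraries. In bulk RNA, a change in the number of producing cells and a change in RNA per cell cannot be told apart.

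Of the 10 genes, 9 lie on mouse chromosome 11 in 2 neighbouring blocks (mm10). Ccl2 (chr11:82035577-82037452), Ccl7 (chr11:82045712-82047523), Ccl12 (chr11:82101845-82103399) and Ccl8 (chr11:82115185-82116799) stand in a row on the plus strand. Ccl5 (chr11:83525779-83530518), Ccl9 (chr11:83572917-83578636), Ccl6 (chr11:83587886-83593087) and Ccl3 (chr11:83647843-83649378) follow on the minus strand, with Ccl4 (chr11:83662584-83664683) on the plus strand, and Ccl22 (chr8:94745684-94751388) is alone on chromosome 8. Ccl2 overlaps Gm17268 on the opposite strand and Ccl6 lies within the antisense gene E230016K23Rik in the GENCODE annotation. The paper's methods describe dUTP-marked libraries and strand-specific counting, whereas the recorded counting command names no strand option. Whether reads of these pairs were shared was not tested. RefSeq promoter windows of build GRCm38.p6 were matched for 6 of the 10 genes, Ccl12, Ccl8, Ccl9, Ccl6, Ccl3 and Ccl22, and not for Ccl2, Ccl4, Ccl5 and Ccl7.

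The 250 bases before the start of Ccl12 and Ccl8 are shown because these neighbours were near 0 at rest and rose together with KLA and poly I:C, with the TATA box TATAAA in capitals. It stands 31 to 26 bases before the start of Ccl12 and 32 to 27 bases before that of Ccl8, and 12.4% of 32851 windows of this length hold it on either strand. The 5′ to 3′ sequences in the sense of each gene are chr11:82101595-82101844 (plus strand) for Ccl12 and chr11:82114935-82115184 (plus strand) for Ccl8.
Ccl12: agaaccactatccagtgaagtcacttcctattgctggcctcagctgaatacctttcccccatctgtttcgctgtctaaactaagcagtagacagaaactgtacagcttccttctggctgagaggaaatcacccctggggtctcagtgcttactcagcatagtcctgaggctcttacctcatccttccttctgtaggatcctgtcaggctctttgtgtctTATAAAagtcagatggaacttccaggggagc
Ccl8: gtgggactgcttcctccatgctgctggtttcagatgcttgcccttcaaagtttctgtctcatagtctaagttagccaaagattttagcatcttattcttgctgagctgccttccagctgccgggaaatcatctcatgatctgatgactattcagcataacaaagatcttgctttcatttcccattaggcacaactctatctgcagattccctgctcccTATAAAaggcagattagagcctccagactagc

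The windows of Ccl9 and Ccl6 are shown because this pair was high at rest and was higher in NKO than in WT macrophages. The longest run that these windows share is 13 bases, in capitals. It is held by 5 of the 32851 windows (0.0152%), those of Ccl9 and Ccl6 among them. For Ccl12 and Ccl8 the same search gave a run of 8 bases, held by 323 windows (0.983%). The search for shared runs was chosen after the sequences were seen. The windows are chr11:83578637-83578886 (minus strand) for Ccl9 and chr11:83593088-83593337 (minus strand) for Ccl6.
Ccl9: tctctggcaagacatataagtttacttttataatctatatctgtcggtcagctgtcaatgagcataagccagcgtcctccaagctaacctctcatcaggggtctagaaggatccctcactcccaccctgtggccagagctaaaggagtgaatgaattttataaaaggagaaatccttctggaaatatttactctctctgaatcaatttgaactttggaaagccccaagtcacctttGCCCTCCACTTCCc
Ccl6: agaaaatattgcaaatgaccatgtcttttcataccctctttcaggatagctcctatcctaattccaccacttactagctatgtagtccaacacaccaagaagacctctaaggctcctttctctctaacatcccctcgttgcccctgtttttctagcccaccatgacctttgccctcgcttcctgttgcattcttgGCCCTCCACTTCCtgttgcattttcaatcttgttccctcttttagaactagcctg

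Of the other motifs searched on both strands, the NFκB consensus was found in the window of Ccl9, 35 to 26 bases before the start (7.25% of all windows hold it), and the AP-1 motif TGANTCA stands 53 to 47 bases before the same start (6.75%). TATAAA also occurs farther up in the window of Ccl9. The interferon response motif GAAANNGAA was found in the window of Ccl3, 39 to 31 bases before the start (7.13%). The STAT6 site, TTC and GAA with any 4 bases between them, was in none of the 6 windows (5.85% of all windows hold it). None of the motifs was in the windows of Ccl6 and Ccl22.

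To compare the genes with each other, levels were divided by transcript length (CPM per kb). In WT_Veh, Ccl9 was the most abundant at 96.9 ± 7.42 CPM per kb (SD, n = 2), followed by Ccl6 at 59.4 ± 4.42 CPM per kb and Ccl3 at 31.9 ± 3.09 CPM per kb. The means of Ccl3, Ccl4 and Ccl5 did not differ beyond their spread there, whereas Ccl22 and Ccl12 were the lowest. In WT_KLA, Ccl5 led at 7776 ± 59.2 CPM per kb, ahead of Ccl3 at 3164 ± 24.9, Ccl4 at 2368 ± 30.9 and Ccl9 at 1154 ± 14.8 CPM per kb, and Ccl6 was last at 46.4 ± 2.2 CPM per kb. In WT_PolyIC, Ccl5 stood at 9036 ± 1.93 CPM per kb and Ccl4, next in order, at 859.6 ± 54.8 CPM per kb. The order thus ran from Ccl9 and Ccl6 at rest to Ccl5 in both TLR groups.

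The 10 genes together took up 0.0488% and 0.056% of the gene counts of the WT_Veh libraries and 0.934% and 0.926% of those of WT_KLA. In the Pgc1b_flox_KLA libraries the share was 2.28% in both. With TBK1i and KLA it was 0.315% and 0.325%, against 1.45% and 1.51% in DMSO_KLA.

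**Figure D1:**
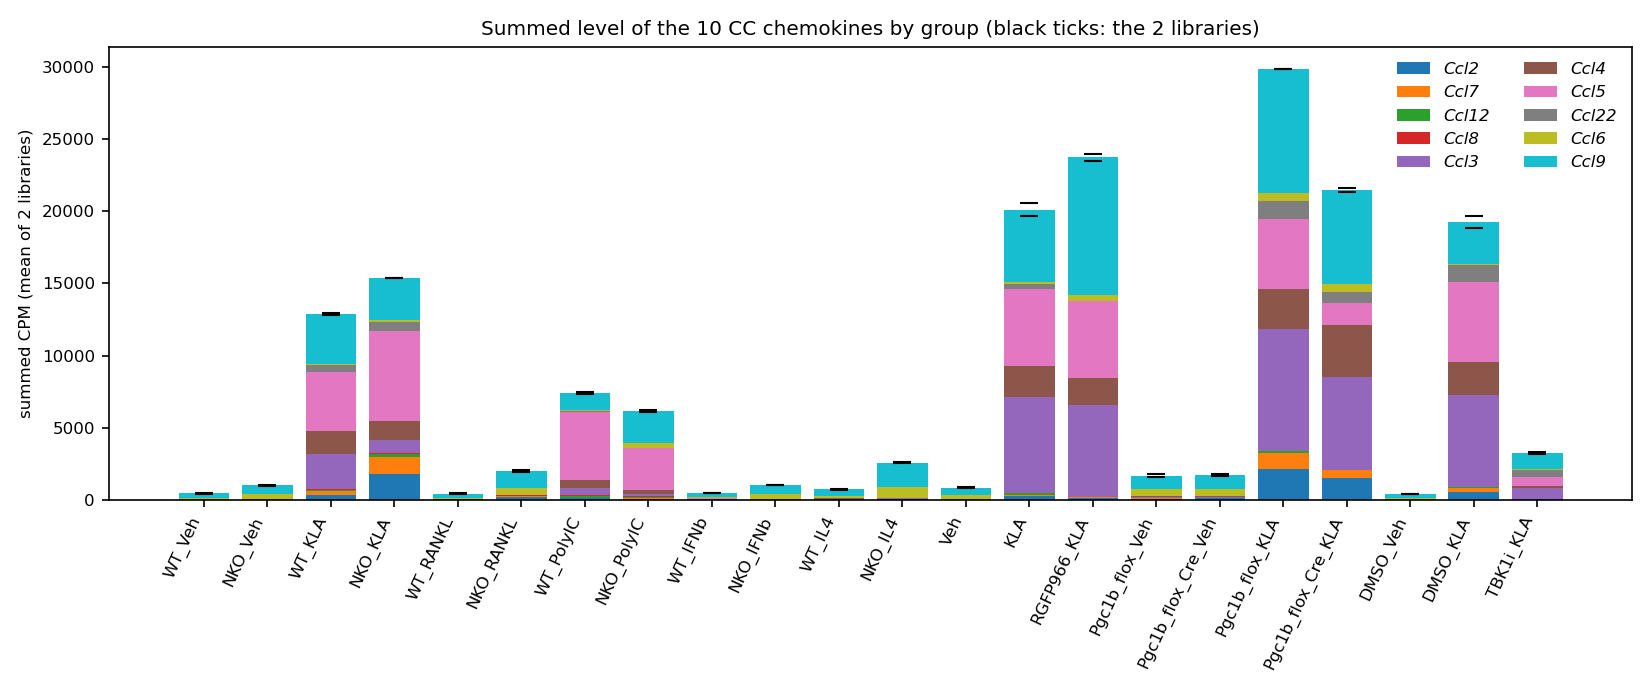
Summed CPM of the 10 CC chemokines in each of the 22 groups (bars, mean of 2 libraries, stacked by gene; black ticks, the libraries). KLA and poly I:C groups stand above all vehicle, IFNb, IL4 and RANKL groups, and Ccl5, Ccl3 and Ccl9 make up most of the KLA bars.

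To explore how WT macrophages changed these genes, each ligand was compared with vehicle. KLA raised 9 of the 10, all but Ccl6, while 57.8% of the 13407 genes tested in the NCoR table were called. A call means a fold change over 1.5 and a Benjamini-Hochberg adjusted p under 0.05 from the quasi-likelihood F-test of edgeR. The median log2 difference of the 10 genes was 6.51 beside -0.14 for all genes. Poly I:C raised the same 9 genes and lowered Ccl6, with 47.2% of all genes called and a median of 4.76 beside -0.07. IFNβ raised Ccl4, Ccl8 and Ccl12 (6.47% of all genes called), IL4 raised Ccl2, Ccl7, Ccl12, Ccl6 and Ccl9 and lowered Ccl5 (13.1%), and RANKL raised 5 genes and lowered 4 (43.8%). These comparisons share the WT_Veh libraries.

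The monocyte chemoattractants differed in the ligands they answered. Ccl2 was at 5.43 and 3.28 CPM in the WT_Veh libraries and at 356 and 289 CPM in WT_KLA, 96.6 and 94.9 CPM in WT_PolyIC, 5.89 and 4.48 CPM in WT_IFNb, 26 and 14.6 CPM in WT_IL4 and 20.8 and 31.0 CPM in WT_RANKL. The libraries of KLA, poly I:C, IL4 and RANKL lay above both vehicle libraries, and those of IFNβ overlapped them. Ccl2 rose 73.9-fold with KLA (log2 6.21 ± 0.28, SE), 21.9-fold with poly I:C, 5.91-fold with RANKL and 4.64-fold with IL4, and the IL4 call was lost when only these 2 groups were fitted (log2 2.23, edgeR adjusted p = 0.0506). Ccl7, its neighbour, was at 2.82 and 1.44 CPM in WT_Veh, 269 and 249 CPM in WT_KLA, 53.1 and 50.3 CPM in WT_PolyIC and 35.8 and 27.3 CPM in WT_IL4. It rose 121-fold with KLA, 24.2-fold with poly I:C, 14.7-fold with IL4 (log2 3.88 ± 0.27, edgeR adjusted p = 2.04e-08) and 3.91-fold with RANKL.

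Ccl12 was nearly silent at rest, with 0 counts and 1 count in the WT_Veh libraries. It reached 119.8 and 102 CPM in WT_KLA and 119 and 117 CPM in WT_PolyIC. Against the single vehicle count, the ratio was 3239 for KLA, with an exact 95% counting interval of 580.3 to 128014, and 3439 for poly I:C (616 to 135886). In WT_IFNb it was at 0.518 and 0.661 CPM, in WT_IL4 at 0.786 and 0.845 CPM and in WT_RANKL at 0.196 and 0.488 CPM, and the ratios to vehicle were 17.1 (2.67 to 713), 23.8 (3.83 to 984) and 9.84 (1.4 to 427). All 5 ligands were called, although RANKL only narrowly (edgeR adjusted p = 0.0118, and 0.103 without WT_Veh replicate 1 or 0.157 without WT_RANKL replicate 2). Ccl8 was at 0.344 and 0.616 CPM in WT_Veh, 23.1 and 25.3 CPM in WT_KLA and 82.1 and 87.2 CPM in WT_PolyIC. It rose 49.4-fold with KLA, 173-fold with poly I:C, 8.28-fold with RANKL and 5.28-fold with IFNβ, and its IL4 libraries at 0.865 and 0.999 CPM did not pass the test (edgeR adjusted p = 0.181).

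Ccl3 and Ccl4, the macrophage inflammatory proteins, moved as a pair. Ccl3 was at 23.3 and 26.7 CPM in WT_Veh, 2470.2 and 2498 CPM in WT_KLA, 416 and 476 CPM in WT_PolyIC and 6.41 and 9.90 CPM in WT_RANKL. Ccl4 was at 15.1 and 21.8 CPM in WT_Veh, 1537 and 1565 CPM in WT_KLA, 538 and 588 CPM in WT_PolyIC and 3.66 and 4.46 CPM in WT_RANKL. In each case the RANKL libraries lay below and the TLR libraries above both vehicle libraries. Ccl3 rose 99.2-fold with KLA and 17.8-fold with poly I:C and fell 3.08-fold with RANKL. Ccl4 rose 84-fold with KLA and 30.5-fold with poly I:C and fell 4.54-fold with RANKL. With IFNβ, Ccl4 at 31.8 and 31.9 CPM was 1.73-fold higher and lost the call without WT_Veh replicate 1 (log2 0.55, under the fold threshold).

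For Ccl5 (RANTES), the WT_Veh libraries stood apart. Replicate 1 of WT_Veh held 40 counts (2.75 CPM) and replicate 2 held 297 (20.3 CPM), while both libraries of each other group of the table lay within a factor of 1.5 of each other. The 14 interferon-stimulated genes moved with it and summed to 286 CPM in replicate 1 and 629 CPM in replicate 2, and their part in the Ccl5 value was not tested. With both vehicle libraries, Ccl5 rose 354-fold with KLA, to 4068 and 4112 CPM, and 411-fold with poly I:C, to 4752 and 4754 CPM. It was not called with IFNβ (log2 0.27 ± 0.47) and was called lower with IL4 and RANKL, with log2 differences of -2.19 and -1.97. With WT_Veh replicate 1 alone, the log2 difference was 10.53 for KLA, 10.75 for poly I:C and 2.33 for IFNβ, a call, whereas IL4 (-0.12, edgeR adjusted p = 0.822) and RANKL (0.09, adjusted p = 0.781) were no longer called. The rises with KLA and poly I:C held with either vehicle library and the other 3 Ccl5 values did not.

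Ccl22 had the same imbalance at a low level, with 2 and 16 counts in WT_Veh (0.138 and 1.09 CPM). It reached 525 and 506 CPM in WT_KLA, 51.6 and 52.3 CPM in WT_PolyIC and 5.49 and 6.97 CPM in WT_RANKL. These 3 groups lay above both vehicle libraries, whereas IL4 (1.02 and 0.692 CPM) and IFNβ (0.388 and 0.441 CPM) lay between them. Ccl22 rose 821-fold with KLA (log2 9.68), 82.8-fold with poly I:C and 9.92-fold with RANKL. Against WT_Veh replicate 2 alone the log2 differences were 8.87, 5.56 and 2.49, and against replicate 1 alone, with its 2 counts, all 3 calls were kept and IL4 was also called (edgeR adjusted p = 0.00761).

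Ccl6 and Ccl9, the Ccr1 ligands of resting macrophages, parted with the TLR ligands. Ccl9 was at 275 and 307 CPM in WT_Veh, 3496 and 3433 CPM in WT_KLA, 1197 and 1182 CPM in WT_PolyIC and 515 and 461 CPM in WT_IL4. Ccl6 was at 80.5 and 89.4 CPM in WT_Veh, 68.6 and 64.1 CPM in WT_KLA, 49.3 and 43.6 CPM in WT_PolyIC, 51.8 and 54.5 CPM in WT_RANKL and 146 and 136 CPM in WT_IL4. Thus Ccl9 lay higher in both TLR groups than in vehicle and Ccl6 lower, while both lay higher in IL4. Ccl9 rose 11.9-fold with KLA, 4.09-fold with poly I:C and 1.68-fold with IL4. Ccl6 fell 1.83-fold with poly I:C and 1.6-fold with RANKL and rose 1.65-fold with IL4, and its KLA difference (log2 -0.36 ± 0.15) did not pass the fold threshold.

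Poly I:C induces type I interferon, so it was set beside added IFNβ. Of the 10 genes, 9 were called higher in WT_PolyIC than in WT_IFNb (41.9% of all genes called), and Ccl6 was not called. The folds ran from 3.78 for Ccl9 to 341 for Ccl5, and Ccl12 was 198-fold and Ccl8 32.7-fold higher. The 14 interferon-stimulated genes also were all higher in WT_PolyIC, by a median of 4.15 on the log2 scale.

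Several values against WT_Veh moved with a single vehicle library, and the vehicle levels are low. Without either one, the KLA differences ranged from 5.89 to 6.61 for Ccl2, from 6.52 to 7.49 for Ccl7, from 5.27 to 6.09 for Ccl8 and from 7.65 to 10.53 for Ccl5 on the log2 scale, and each kept its call. The poly I:C difference ranged in the same way from 7.87 to 10.75 for Ccl5. Ccl12, whose vehicle libraries hold 0 counts and 1 count, kept its KLA and poly I:C calls without either. The 6 fibroblast and stromal markers, mainly collagen genes, summed to 88.0 and 97.0 CPM in WT_Veh and to 1.31 and 1.50 CPM in WT_KLA, against 50.8 and 52.2 CPM in DMSO_Veh and 46.3 and 48.9 CPM in DMSO_KLA, and their part in the KLA values was not tested. WT_KLA and WT_RANKL also carry other date stamps than WT_Veh, and RANKL lasted 12 h against 6 h for vehicle. Ligand, date and time thus cannot be told apart in these 2 comparisons. The 7 macrophage markers summed to 4583 and 4645 CPM in WT_RANKL against 7897 and 8486 CPM in WT_Veh. The 8 neutrophil and precursor markers summed to 1303 and 1434 CPM against 3.56 and 7.98 CPM. For RANKL, cell make-up therefore cannot be told apart from the ligand either.

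The KLA response was measured again in 3 further control sets, each within its own stamp. In the RGFP966 table (KLA against Veh, 60.0% of 12196 genes called), the TBK1i table (DMSO_KLA against DMSO_Veh, 58.9% of 12332) and the Pgc1b table (Pgc1b_flox_KLA against Pgc1b_flox_Veh, 48.5% of 12205), the same 9 genes were called higher and Ccl6 was not called. The log2 differences in the RGFP966, TBK1i and Pgc1b tables were 10.79, 11.49 and 11.40 for Ccl5, 7.13, 8.02 and 6.32 for Ccl3 and 3.27, 3.59 and 3.17 for Ccl9. Vehicle levels of some genes also differed between the sets. Ccl2 stood at 90.3 and 81.3 CPM in Pgc1b_flox_Veh, against 3.94 and 4.26 CPM in Veh and 2.95 and 2.32 CPM in DMSO_Veh, and it reached 2235 and 2046 CPM in Pgc1b_flox_KLA, a 25-fold rise (log2 4.64 ± 0.074). Ccl8 had 0 counts in both Pgc1b_flox_Veh libraries and was at least 56.7-fold higher in Pgc1b_flox_KLA, against a floor of 3 counts per library. Some other vehicle counts were also at or near 0, at 1 and 0 for Ccl8 in the RGFP966 table and at 3 and 0, 1 and 3, and 0 and 6 for Ccl12 in the RGFP966, TBK1i and Pgc1b tables. The calls of these genes were kept without either vehicle library, as was that of Ccl7 in the TBK1i table, whose log2 difference ranged from 8.25 to 9.39. These tables were normalized separately, so levels are set side by side across them without a test.

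To examine the loss of NCoR, NKO was compared with WT under each treatment. Ccl6 and Ccl9 stood apart under most treatments. Ccl6 was higher in NKO than in WT under all 6 treatments, although for KLA the sign turned against other control sets (below 0 against KLA and Pgc1b_flox_KLA), and Ccl9 was higher under 5, all but KLA. In vehicle, Ccl6 was at 394 and 368 CPM in NKO against 80.5 and 89.4 CPM in WT, and Ccl9 at 602 and 562 CPM against 275 and 307 CPM. The NKO libraries did not overlap the WT libraries for either gene. The log2 difference of Ccl6 was 2.17 ± 0.12 in vehicle, 2.80 ± 0.14 in poly I:C, 2.24 ± 0.13 in IFNβ, 2.44 ± 0.12 in IL4, 3.15 ± 0.13 in RANKL and 1.23 ± 0.15 in KLA. That of Ccl9 was 1.00 ± 0.057 in vehicle, 0.92 ± 0.056 in poly I:C, 1.04 ± 0.057 in IFNβ, 1.80 ± 0.057 in IL4 and 1.91 ± 0.058 in RANKL. Ccl6 reached its highest level among the 12 groups in NKO_IL4, at 799 and 729 CPM. Each of these values, apart from KLA, comes from NKO and WT libraries of the same stamp. The 5 osteoclast markers summed to 144 and 149 CPM in NKO_Veh against 53.8 and 65.7 CPM in WT_Veh. In poly I:C the sums were 156 and 169 against 61.3 and 61.8 CPM, and in IFNβ 141 and 146 against 56.1 and 60.4. In IL4 they were 148 and 149 against 63.7 and 66.8 CPM, in RANKL 105 and 111 against 90.4 and 92.5. The KLA sums were 95.3 and 100 against 89.7 and 92.3 CPM. Their part in these values was not tested.

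**Figure D2:**
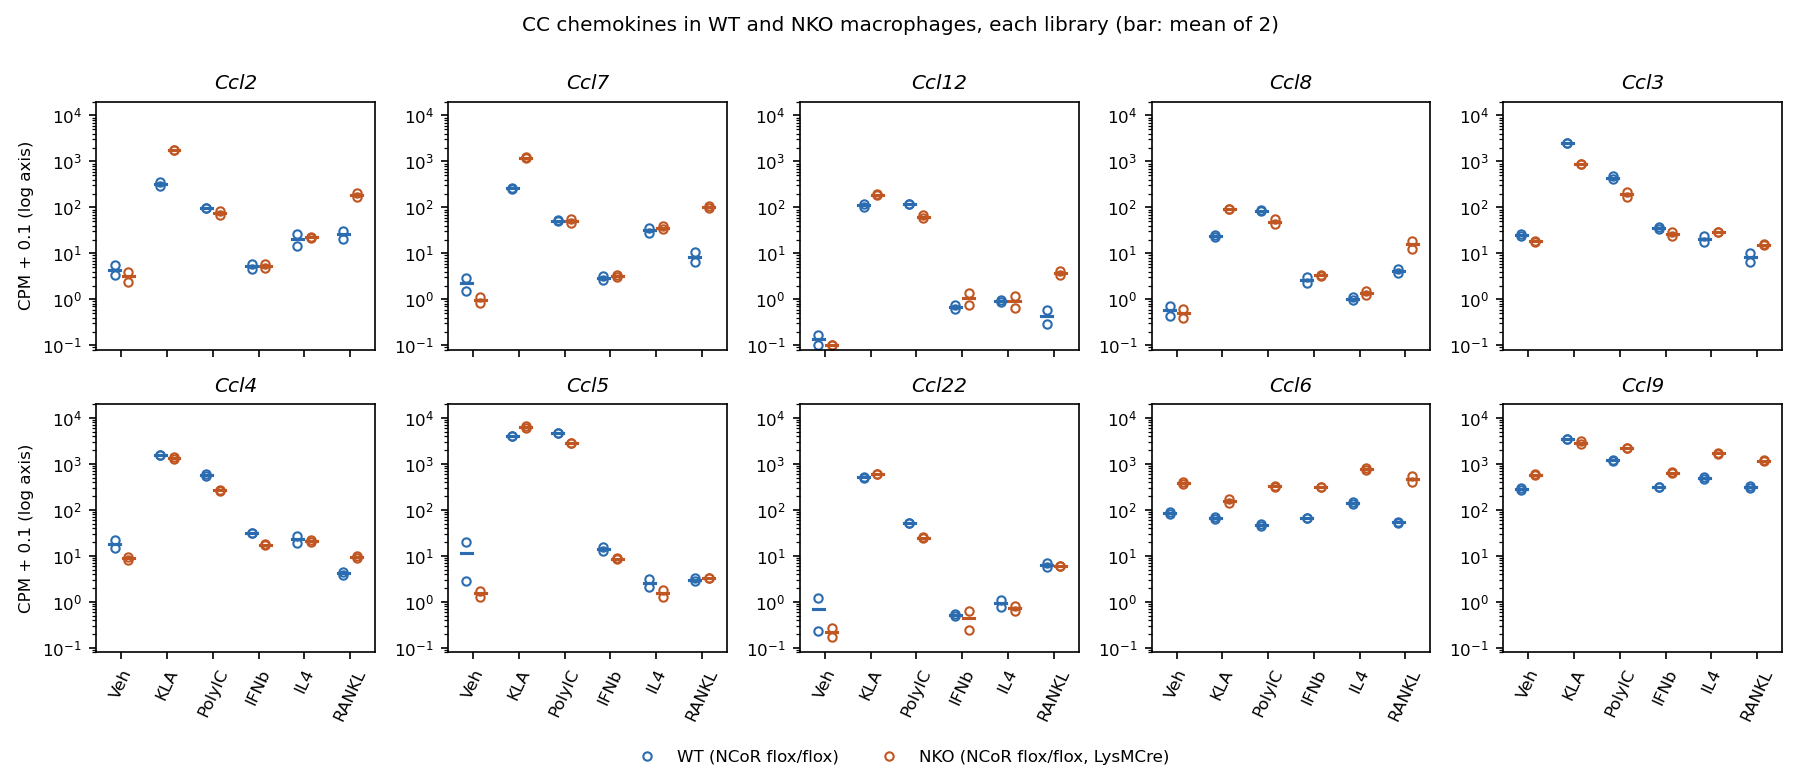
Level of each CC chemokine (CPM + 0.1, log axis) in the 24 libraries of the NCoR table, by treatment (circles, libraries; bars, mean of 2; blue, WT; orange, NKO). The orange circles of Ccl6 lie above the blue ones in all 6 treatments, and those of Ccl2, Ccl7, Ccl12 and Ccl8 do so in KLA and RANKL.

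In vehicle, 5 members were called (6.21% of all genes), namely Ccl6 and Ccl9 higher and Ccl4, Ccl5 and Ccl22 lower. Ccl4 was at 7.89 and 9.46 CPM in NKO_Veh and 2.11-fold lower than in WT_Veh (edgeR adjusted p = 0.0007). Ccl5 was at 1.65 and 1.20 CPM in NKO_Veh, with a log2 difference of -3.04 ± 0.76 that became -0.97 with WT_Veh replicate 1 alone (edgeR adjusted p = 0.019) and lost its call without either NKO_Veh library (adjusted p = 0.0538 and 0.1). Ccl22 had 1 and 3 counts in NKO_Veh, a ratio of 4.86 (exact 95% counting interval 1.6 to 19.7) in favour of WT_Veh, whose call was lost with WT_Veh replicate 1 alone (edgeR adjusted p = 0.984) and without either NKO_Veh library (adjusted p = 0.0556 and 0.137). Beside these, 12 of the 14 interferon-stimulated genes were lower in NKO_Veh. The 14 genes summed to 171 and 193 CPM in NKO_Veh against 286 CPM in WT_Veh replicate 1 and 629 CPM in replicate 2. The 6 fibroblast and stromal markers summed to 65.9 and 66.5 CPM in NKO_Veh, below the WT_Veh sums given above. The part of both lists in these values was not tested.

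In poly I:C, 7 members were called (5.93% of all genes), Ccl6 and Ccl9 higher and 5 lower. Ccl3 was at 170.4 and 212 CPM in NKO against 416 and 476 CPM in WT, and Ccl4 at 254 and 274 CPM against 538 and 588 CPM. Ccl12 was at 58.7 and 67.0 CPM against 119 and 117 CPM, Ccl8 at 42.5 and 54.9 CPM against 82.1 and 87.2 CPM and Ccl22 at 25.0 and 24.8 CPM against 51.6 and 52.3 CPM. The folds were 2.33 for Ccl3, 2.13 for Ccl4, 1.88 for Ccl12, 1.74 for Ccl8 and 2.09 for Ccl22. Ccl5, at 2857 and 2885 CPM against 4752 and 4754 CPM, missed the threshold (log2 -0.73 ± 0.24, edgeR adjusted p = 0.0545), and Ccl2 and Ccl7 were not called. Of the interferon-stimulated genes, 1 of 14 was called, and it was lower. The fibroblast and stromal markers summed to 71.5 and 62.7 CPM in NKO_PolyIC against 115 and 131 CPM in WT_PolyIC, and their part in these values was not tested.

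In IFNβ, Ccl6 and Ccl9 were called higher and Ccl4 lower (3.80% of all genes called), with Ccl4 at 18 and 16.8 CPM against 31.8 and 31.9 CPM. In IL4, Ccl6 and Ccl9 alone were called (4.24%). Ccl7, at 34.2 and 38.4 CPM in NKO_IL4 against 35.8 and 27.3 CPM in WT_IL4, had a log2 difference of 0.20 ± 0.16.

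In RANKL, 8 members were called, all higher in NKO (13.2% of all genes called), with a median log2 difference of 1.93 beside 0.01 for all genes. Ccl2 was at 205 and 166 CPM in NKO_RANKL against 20.8 and 31.0 CPM in WT_RANKL, and Ccl7 at 106 and 95.1 CPM against 6.41 and 10.4 CPM. Ccl12 was at 4.07 and 3.34 CPM against 0.196 and 0.488 CPM, and Ccl8 at 18.8 and 12.2 CPM against 4.51 and 3.56 CPM. All 4 monocyte chemoattractants stood apart, by 7.2-fold for Ccl2, 12.1-fold for Ccl7, 10.7-fold for Ccl12 and 3.86-fold for Ccl8, with Ccl12, at 3 and 7 counts in WT_RANKL, falling to 2.90 on the log2 scale without replicate 1 of WT_RANKL and keeping its call without any 1 library. Ccl3 and Ccl4 were 1.88-fold and 2.29-fold higher, and Ccl3 lost its call without WT_RANKL replicate 1 or NKO_RANKL replicate 1. Ccl5 and Ccl22 were not called. The 8 neutrophil and precursor markers summed to 1772 and 1832 CPM in NKO_RANKL and to 1303 and 1434 CPM in WT_RANKL, the 9 lymphocyte markers to 5.24 and 6.68 CPM against 4.84 and 5.16 CPM, and of the 14 interferon-stimulated genes 8 were higher and 1 was lower in NKO_RANKL. The 4 mast cell and basophil markers summed to 6.23 and 5.67 CPM in NKO_RANKL against 2.03 and 1.39 CPM in WT_RANKL, with 1 of them at 0 in each library, and the 6 fibroblast and stromal markers to 229.8 and 326 CPM against 221 and 195 CPM. Their part in these values was not tested.

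In KLA, NKO and WT differ in stamp and in sex as well as in genotype, which cannot be told apart. With that limit, 7 members were called (40.0% of all genes). Ccl2 was at 1796 and 1733 CPM in NKO_KLA against 356 and 289 CPM in WT_KLA, Ccl7 at 1198 and 1234 CPM against 269 and 249 CPM, and Ccl8 at 93.0 and 90.6 CPM against 23.1 and 25.3 CPM. They were 5.47-fold, 4.69-fold and 3.8-fold higher in NKO_KLA, and Ccl12 was 1.7-fold higher. Ccl3, at 859.7 and 868 CPM against 2470.2 and 2498 CPM, was 2.88-fold lower. Ccl5 was 1.53-fold higher and lost its call without any 1 of the 4 KLA libraries, with DESeq2's size factors, with no filter on low counts or with DESeq2. The 5 dendritic cell markers summed to 35.4 and 31.2 CPM in NKO_KLA, where none was at 0, against 4.26 and 4.66 CPM in WT_KLA, where 3 and 2 were at 0. The 6 fibroblast and stromal markers summed to 11.7 and 8.57 CPM against 1.31 and 1.50 CPM. The part of both lists in these values was not tested.

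Because of that limit, NKO_KLA was also set against the KLA controls of the other tables in a joint fit of 11267 genes. The direction held in all 4 control sets for Ccl3, lower with log2 ratios from -3.29 to -1.54, for Ccl8, higher by 1.91 to 3.51, for Ccl12, higher by 0.56 to 1.37, and for Ccl4, lower with log2 ratios from -1.08 to -0.25. Ccl2 was higher against WT_KLA (2.43), KLA (2.62) and DMSO_KLA (1.67) but stood at -0.29 against Pgc1b_flox_KLA, whose libraries also show Y-linked counts. Ccl7 was higher by 2.18 to 2.93 against the same 3 sets and stood at 0.09 against Pgc1b_flox_KLA. Ccl6 turned from 1.21 against WT_KLA and 0.86 against DMSO_KLA to -0.51 against KLA and -1.82 against Pgc1b_flox_KLA. Ccl9 lay below 0 against all 4, at -0.26 for WT_KLA, -1.07 for KLA, -1.57 for Pgc1b_flox_KLA and -0.04 for DMSO_KLA, and was called against KLA and Pgc1b_flox_KLA. The numbers of members called were 7 against KLA (45.9% of all genes), 8 against DMSO_KLA (40.9%) and 6 against Pgc1b_flox_KLA (36.3%). Ccl8 and Ccl3 were thus the members that stood apart from every control set, called in each.

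**Figure D3:**
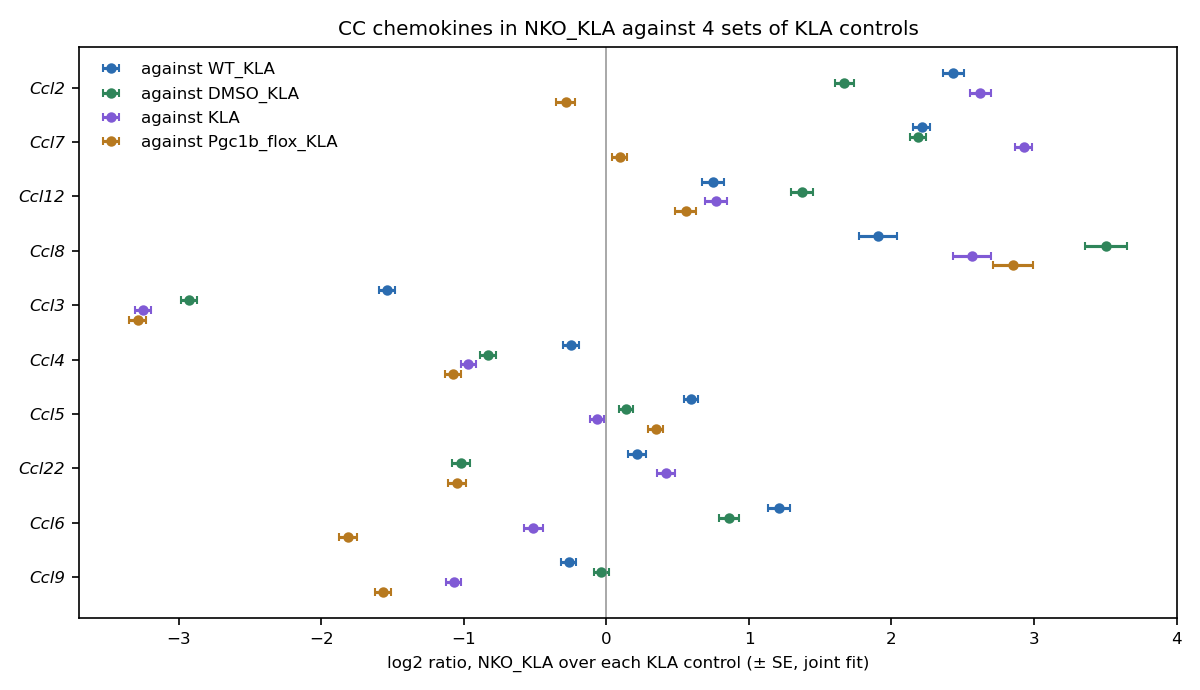
Log2 ratio of NKO_KLA over each of 4 KLA control groups in the joint fit (points, with SE). Ccl3 lies between -3.29 and -1.54 and Ccl8 between 1.91 and 3.51 against all 4, whereas Ccl2, Ccl5, Ccl6 and Ccl22 have points on both sides of 0.

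Responses were also taken within NKO macrophages. NKO_KLA differs from NKO_Veh in stamp and sex as well as in ligand, and NKO_RANKL in stamp, time and cell markers. These differences cannot be told apart from the ligand. The limit of NKO_KLA also holds for the KLA test between genotypes below. The 7 macrophage markers summed to 5223 and 5706 CPM in NKO_RANKL against 7015 and 7217 CPM in NKO_Veh. The 8 neutrophil and precursor markers summed to 1772 and 1832 CPM against 5.47 and 5.67 CPM. KLA called all 10 members (61.2% of all genes), 9 higher and Ccl6 lower. Poly I:C called 9, all higher (43.1%), RANKL 6, all higher (45.3%), IFNβ 5, all higher (8.38%), and IL4 9, all higher (12.1%). Ccl12 had 0 counts in both NKO_Veh libraries and was at least 977-fold higher in NKO_KLA, at least 325-fold higher in NKO_PolyIC and at least 19.2-fold higher in NKO_RANKL, against the floor of 3 counts per library. The test of whether a response differed between genotypes called 9 members for KLA (36.9% of all genes), 8 for RANKL (14.2%), 1 for poly I:C (3.24%), none for IFNβ by edgeR (0.604%, with Ccl5 alone at an unadjusted p under 0.05 and 1 call by DESeq2) and 1 for IL4 (0.604%). In IL4 that was Ccl9, whose rise was larger in NKO by 0.80 ± 0.080 on the log2 scale (edgeR adjusted p = 2.39e-10). In poly I:C it was Ccl3, whose rise was smaller in NKO (log2 -0.76, edgeR adjusted p = 0.0394, and up to 0.13 when a library was left out).

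Inhibition of HDAC3, the deacetylase that NCoR brings to chromatin, split the family in KLA-treated macrophages. Of the 10 members, 5 were lower in RGFP966_KLA than in KLA, 2 were higher and 3 were not called (25.4% of all genes called). Ccl22 was at 20.7 and 16.1 CPM against 343 and 394 CPM, a 20-fold fall (log2 -4.32 ± 0.084, edgeR adjusted p = 3.44e-56). Ccl8 was at 0.147 and 0.675 CPM (2 and 9 counts) against 14.9 and 10.5 CPM, a log2 difference of -4.92 ± 0.35 that was -4.21 without replicate 1 of RGFP966_KLA and kept its call without replicate 2, which leaves 2 counts. Ccl12 was at 14.2 and 13.7 CPM against 93.8 and 86.6 CPM, a 6.45-fold fall. Ccl2 fell 2.37-fold, to 95.6 and 101 CPM from 227 and 239 CPM, and Ccl7 fell 1.87-fold.

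Ccl3, Ccl4 and Ccl5 were the members without a call. Ccl3 was at 6522 and 6227 CPM in RGFP966_KLA against 6428 and 6953 CPM in KLA, and Ccl5 at 5350.4 and 5351 CPM against 5386 and 5249 CPM. The log2 differences were -0.07 ± 0.054 for Ccl3, -0.18 ± 0.054 for Ccl4 and 0.01 ± 0.052 for Ccl5. Ccl6, at 426 and 449 CPM against 177 and 184 CPM, and Ccl9, at 9227 and 9816 CPM against 4793 and 5198 CPM, were 2.42-fold and 1.91-fold higher. The 2 RGFP966_KLA libraries carry stamps 14 days apart. Against vehicle, all 10 members were called higher in RGFP966_KLA (54.3% of all genes), Ccl6 among them at 1.88-fold, and Ccl8 lost that call without RGFP966_KLA replicate 2 (edgeR adjusted p = 0.206). Of the 14 interferon-stimulated genes, 6 were lower with the inhibitor and none higher. The 8 neutrophil and precursor markers summed to 21.3 and 22.8 CPM in RGFP966_KLA, with 3 and 4 of them at 0, against 5.16 and 9.31 CPM in KLA, with 3 at 0 in each, and their part in these values was not tested.

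TBK1, the kinase that activates IRF3 downstream of TLR3 and TLR4, was inhibited in the TBK1i table. In TBK1i_KLA, 9 of 10 members were lower than in DMSO_KLA and none was higher (33.3% of all genes called), and the median log2 difference was -3.46 beside 0.01 for all genes. Ccl12 was at 0.601 and 0.225 CPM against 71.4 and 70.3 CPM, a 163-fold fall (log2 -7.35, with 6 and 2 counts in TBK1i_KLA), and Ccl7 at 5.11 and 4.73 CPM against 253 and 267 CPM, a 52.6-fold fall. Ccl8 had 1 count in each TBK1i_KLA library against 76 and 63 in DMSO_KLA, a ratio of 74.0 with an exact 95% counting interval of 20.1 to 617. Ccl2 was 14.4-fold, Ccl4 14.1-fold, Ccl5 8.59-fold and Ccl3 8.42-fold lower. Ccl9 and Ccl22 changed least among the 9, at 2.7-fold and 2.46-fold lower, with Ccl22 still at 494 and 474 CPM against 1112 and 1274 CPM. Ccl6, at 66.9 and 67.6 CPM against 81.1 and 85.4 CPM, had a log2 difference of -0.31 ± 0.070 and no call. The 14 interferon-stimulated genes were all lower, with a median log2 difference of -9.23.

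Against DMSO_Veh, 7 members were still called higher in TBK1i_KLA (57.3% of all genes). Ccl5, at 632 and 653 CPM against 1.99 and 1.81 CPM, was 336-fold higher and Ccl22 909-fold higher. Ccl12 was at 6 and 2 counts against 1 and 3 in vehicle and Ccl8 at 1 and 1 against 4 and 2, and neither was called, so their rise with KLA was not detectable with the inhibitor at this depth. Ccl6 was the other gene without a call.

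**Figure D4:**
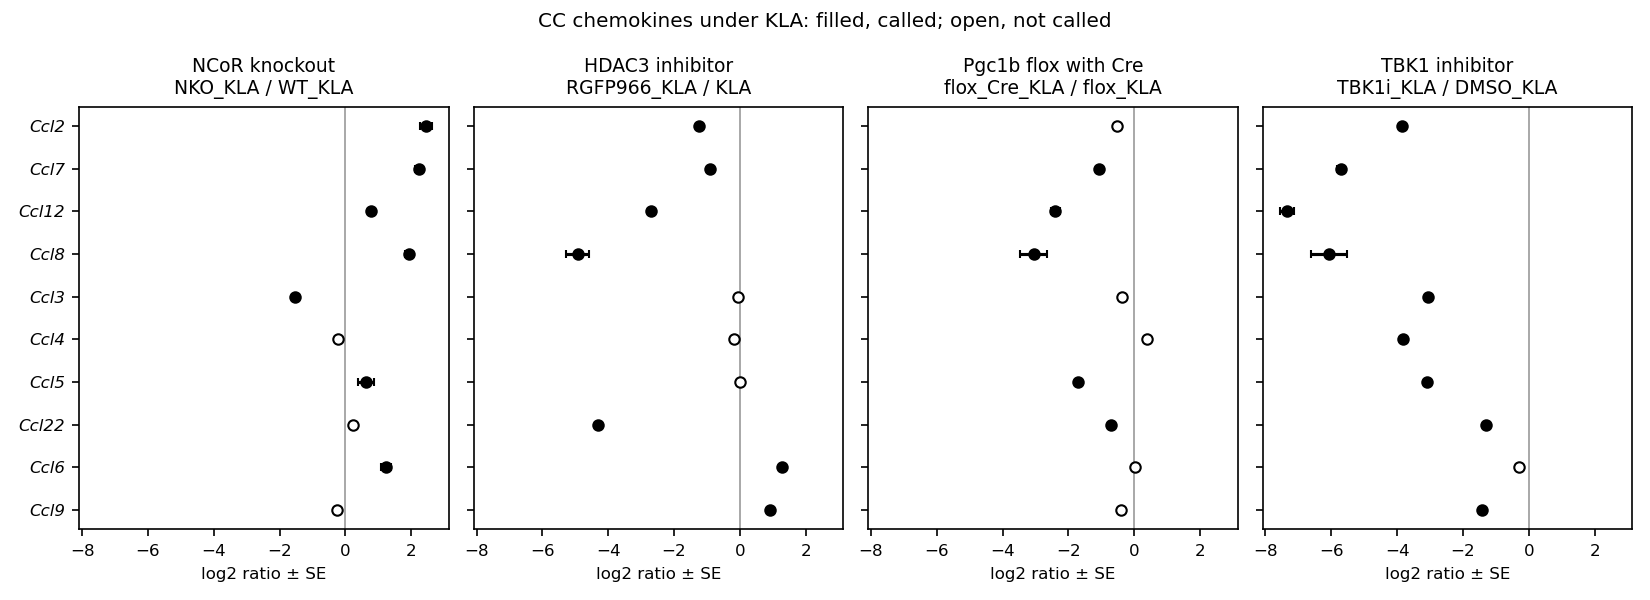
Log2 ratio with SE of each CC chemokine in 4 comparisons of KLA-treated macrophages (filled, called; open, not called). Ccl12 and Ccl8 lie left of 0 with RGFP966, Pgc1b flox with Cre and the TBK1 inhibitor and right of 0 in NKO_KLA, whereas Ccl3, Ccl4 and Ccl5 lie near 0 with RGFP966.

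PGC1β, encoded by Ppargc1b, is a transcriptional coactivator, and its floxed allele was combined with LysMCre in the Pgc1b table. In vehicle, none of the 10 members was called by edgeR (0.303% of all genes), and 2, Ccl7 and Ccl12, had an unadjusted p under 0.05, whereas leaving out the filter on low counts gave 1 call. In KLA, 5 members were lower in Pgc1b_flox_Cre_KLA and none was higher (26.1% of all genes called). Ccl8 was at 1.40 and 1.61 CPM against 12.9 and 12.3 CPM, an 8.35-fold fall, and Ccl12 at 22.8 and 25.6 CPM against 127 and 129 CPM, a 5.27-fold fall. Ccl5 was at 1516 and 1491 CPM against 5055 and 4738 CPM, a 3.26-fold fall, and Ccl7 at 534 and 554 CPM against 1132 and 1135 CPM. Ccl22 was 1.63-fold lower. Ccl2, Ccl3 and Ccl9 were lower by less than the fold threshold, with log2 differences of -0.52, -0.39 and -0.41, and Ccl4 was at 0.39. The interferon-stimulated genes were lower in KLA for 14 of 14, with a median log2 difference of -1.73, and that of Tbk1 itself was -0.82.

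The KLA response of Pgc1b_flox_Cre still raised 9 members (39.8% of all genes called), all but Ccl6. It differed between the genotypes for 5 (22.8%), namely Ccl2, Ccl5, Ccl7, Ccl12 and Ccl22. Ccl8 had 0 counts in all 4 vehicle libraries of this table, so the test between genotypes could not decide whether its response differed. It was at least 7.93-fold higher in Pgc1b_flox_Cre_KLA than in vehicle.

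Across the 12 groups of the NCoR table, the log2(CPM + 1) means of Ccl3 and Ccl4 correlated at r = 0.99 and those of Ccl2 and Ccl7 at r = 0.97, as a description, since the groups share libraries of the same table. Ccl7 was the gene most like Ccl2 among 11010 genes, and the reverse. The genes most like the other members were Ap2b1 for Ccl3, Tox4 for Ccl4, Fam26f for Ccl5 (0.99), Bcap31 for Ccl6 (0.91), Gosr2 for Ccl8, Hk2 for Ccl9 (0.92), Ythdf1 for Ccl12 and Plpp1 for Ccl22. The second in rank were Riok3 for Ccl2 (0.97), Ccl4 for Ccl3, Ccl3 for Ccl4, Batf2 for Ccl5, Mmp12 for Ccl6 (0.87), Sec61a1 for Ccl7 (0.93), 1700052K11Rik for Ccl8, Sec23ip for Ccl9 (0.92), Gch1 for Ccl12 and Socs3 for Ccl22. Ccl6 had the lowest of these likenesses, and its r with Ccl5 was -0.36.

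The receptors of these ligands were also measured. Of 13 other CC ligands, 5 were tested in the NCoR table, and with KLA 2 rose and 2 fell (57.8% of all genes called). Ccl24, an eotaxin, was at 5.21 ± 0.882 CPM in WT_KLA against 0.206 ± 0.0978 CPM in WT_Veh (SD, n = 2). In the Pgc1b table, Ccl17, a Ccr4 ligand like Ccl22, had 0 counts per library in Pgc1b_flox_Veh and 25.6 ± 1.52 CPM in Pgc1b_flox_KLA. Of 10 CC receptors, 7 were tested in the NCoR table, where KLA raised 4 and lowered 1, beside the same 57.8% of all genes. Ccr1, the receptor of Ccl6 and Ccl9, was higher in NKO than in WT under all 6 treatments, at 47.3 ± 3.26 CPM against 20.5 ± 6.66 CPM in vehicle, with log2 differences from 0.85 in KLA to 2.37 in poly I:C. Ccr2, the receptor of Ccl2, Ccl7 and Ccl12, was at 106 ± 8.18 CPM in NKO_KLA against 14.1 ± 2.51 CPM in WT_KLA, and Ccr7 at 16.6 ± 1.48 CPM against 1.57 ± 0.331 CPM, within the limit on KLA given above. Ccrl2, an atypical receptor that binds chemerin, rose with KLA in each of the 4 tables, from 59.3 ± 4.69 CPM in WT_Veh to 1408 ± 7.85 CPM in WT_KLA.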

How the data were processed

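RNA-seq reads from macrophages grown from mouse marrow were aligned by the authors with STAR to mm10 and counted with HOMER, and the raw counts per gene were deposited as 4 tables. Versions of these tools are not given in the sources used here. Each table was fitted separately with all its groups in edgeR 4.0.16 (R 4.3.3), with TMM scaling, filterByExpr and the robust quasi-likelihood F-test, and p-values were adjusted by Benjamini-Hochberg over all genes tested. A call needed an adjusted p under 0.05 and a fold change over 1.5. SE is the log2 difference divided by the square root of F. NKO_KLA was set against other KLA controls in a joint fit over 23368 shared transcripts. DESeq2 1.42.0, its size factors, other filters, the compared groups alone, a replicate block and leaving out each library were alternatives. The edgeR steps were tested on simulated data. Depth was 8323493 to 16783155 counts per library. Folds against a group with 3 counts or fewer in both libraries are bounds or counting ratios. All 10 members were named, other CC genes only when called with at least 5 CPM in a compared group, and the 2 genes most like each member. The members and lists were chosen with earlier results of these data known. Other data types of the study were not analysed here. 1 receptor gene is not reported here.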

Additional observations from a re-analysis of the deposited data

Results flagged for a closer look

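The tests of whether a response differed between genotypes singled out 24 values, each a log2 difference between the responses of NKO and WT, or of Pgc1b_flox_Cre and Pgc1b_flox. All adjusted p-values are from edgeR. No group had 4 libraries, so no check of single outlying libraries was made.

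For KLA, the rise over vehicle was larger in NKO than in WT for Ccl2 (2.98), Ccl4 (0.84), Ccl5 (3.65), Ccl7 (3.48), Ccl8 (2.25) and Ccl22 (2.42). The term was negative for Ccl3 (-1.06), Ccl6 (-0.94) and Ccl9 (-1.25). Ccl4, Ccl5 and Ccl22 were also called lower in NKO_Veh than in WT_Veh, with Ccl22 at 1 and 3 counts in NKO_Veh. Under KLA, Ccl4 was at 1257 and 1385 CPM in NKO against 1537 and 1565 CPM in WT. Ccl22 was at 605 and 605 CPM against 525 and 506 CPM, and Ccl5 at 6520 and 5980 CPM against 4068 and 4112 CPM. NKO_KLA differs from the other 3 groups in stamp and sex, which cannot be told apart from genotype. Without WT_Veh replicate 2, Ccl4 (0.55), Ccl8 (1.78) and Ccl22 were no longer called, and Ccl5 was at 1.58 with its call kept.

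For RANKL, the term was positive for Ccl2 (3.37), Ccl3 (1.37), Ccl4 (2.27), Ccl6 (0.99), Ccl7 (4.84), Ccl8 (2.27), Ccl9 (0.91) and Ccl22 (2.12). The Ccl22 level itself was 5.78 and 6.07 CPM in NKO_RANKL against 5.49 and 6.97 CPM in WT_RANKL. Without WT_Veh replicate 2, Ccl8 (1.80, adjusted p = 0.162) and Ccl22 (adjusted p = 0.998) lost the call, as did Ccl8 without NKO_Veh replicate 2 and Ccl22 without NKO_Veh replicate 1. The neutrophil and precursor markers that stood higher in the RANKL libraries were not tested as a part of these values.

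For poly I:C, Ccl3 was at -0.76 and lost the call when any 1 of 6 libraries was left out, both WT_Veh, both NKO_Veh, WT_PolyIC replicate 2 or NKO_PolyIC replicate 1. For IL4, Ccl9 was at 0.80.

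In the Pgc1b table, the KLA rise was smaller with LysMCre for Ccl2 (-0.65), Ccl5 (-2.08), Ccl7 (-1.32), Ccl12 (-4.45) and Ccl22 (-1.29). The Pgc1b_flox_Veh libraries held 0 and 6 counts of Ccl12 and the Pgc1b_flox_Cre_Veh libraries 20 and 10, so its term rests partly on low vehicle counts. Under KLA, Ccl12 was at 22.8 and 25.6 CPM with LysMCre against 127 and 129 CPM without it. The call of the Ccl12 term was kept whichever library was left out. Ccl22 lost the call without Pgc1b_flox_Veh replicate 2 (-0.84, adjusted p = 0.153), and Ccl2 fell under the fold threshold without Pgc1b_flox_Veh replicate 2, Pgc1b_flox_Cre_Veh replicate 2 or Pgc1b_flox_KLA replicate 1.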

How the results depend on the processing

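Of 215 called values of the 10 genes, recomputed 2451 times, 2383 kept their call, 63 lost it and 5 reversed. Ccl5 in WT_RANKL, called lower with both WT_Veh libraries, reversed without WT_Veh replicate 2 (0.0938) and stood at -2.7862 without replicate 1. The other reversals came with another KLA control for NKO_KLA. They were Ccl2 against Pgc1b_flox_KLA (-0.29), Ccl5 against KLA (-0.0647) and Ccl6 against KLA (-0.51) and Pgc1b_flox_KLA (-1.82). The cause was not tested. The number of members called moved from 1 to 2 with DESeq2 size factors, to 4 without a filter, to 3 at a mean of 5 CPM, to 3 with the replicate block and to 4 with DESeq2 for NKO x IL4. For NKO x PolyIC it moved from 1 to 3 without a filter, 2 at a mean of 5 CPM and 4 with DESeq2, and for NKO x IFNb from 0 to 1 with DESeq2. It moved from 5 to 3 for NKO_Veh against WT_Veh in a fit of only these groups, from 0 to 1 for Pgc1b_flox_Cre_Veh without a filter, and without the fold threshold from 5 to 9 for Pgc1b_flox_Cre_KLA and from 5 to 8 for Cre x KLA. Replicate numbers name libraries only. The log2 differences between replicates 1 and 2 of a group correlated with those of the compared group at -0.083 to 0.072 in 27 contrasts. The replicate block lost none of the 215 calls. Leaving out 1 library, which pools the spread for the lone library left, gave 7 to 8 for WT_RANKL against WT_Veh, 2 to 4 for WT_IFNb against WT_Veh, 5 to 7 for WT_IL4 against WT_Veh, 3 to 5 for NKO_Veh against WT_Veh, 6 to 9 for NKO x KLA, 7 to 9 for NKO x RANKL, 0 to 2 for NKO x PolyIC, 0 to 1 for NKO x IFNb, 1 to 5 for NKO x IL4, 3 to 4 for NKO_IFNb against NKO_Veh, 7 to 8 for NKO_IL4 against NKO_Veh, 7 to 8 for NKO_RANKL against WT_RANKL, 9 to 10 for WT_PolyIC against WT_IFNb, 2 to 3 for NKO_IL4 against WT_IL4, 9 to 10 for RGFP966_KLA against Veh, 7 to 9 for TBK1i_KLA against DMSO_Veh, 0 to 1 for Pgc1b_flox_Cre_Veh against Pgc1b_flox_Veh, 3 to 5 for Cre x KLA. It gave 1 number throughout elsewhere (9 for WT_KLA against WT_Veh, 10 for WT_PolyIC against WT_Veh, 10 for NKO_KLA against NKO_Veh, 6 for NKO_RANKL against NKO_Veh, 9 for NKO_PolyIC against NKO_Veh, 6 for NKO_KLA against WT_KLA, 3 for NKO_IFNb against WT_IFNb, 7 for NKO_PolyIC against WT_PolyIC, 9 for KLA against Veh, 7 for RGFP966_KLA against KLA, 9 for DMSO_KLA against DMSO_Veh, 9 for TBK1i_KLA against DMSO_KLA, 9 for Pgc1b_flox_KLA against Pgc1b_flox_Veh, 9 for Pgc1b_flox_Cre_KLA against Pgc1b_flox_Cre_Veh, 5 for Pgc1b_flox_Cre_KLA against Pgc1b_flox_KLA). Over all genes, the calls without the fold threshold were 9236 against 5873 for WT_RANKL over WT_Veh, 3402 against 867 for WT_IFNb over WT_Veh, 4258 against 1755 for WT_IL4 over WT_Veh, 9294 against 6071 for NKO_RANKL over NKO_Veh, 3540 against 1123 for NKO_IFNb over NKO_Veh, 4243 against 1625 for NKO_IL4 over NKO_Veh, 2690 against 832 for NKO_Veh over WT_Veh, 8062 against 5367 for NKO_KLA over WT_KLA, 4594 against 1770 for NKO_RANKL over WT_RANKL, 2675 against 795 for NKO_PolyIC over WT_PolyIC, 1806 against 510 for NKO_IFNb over WT_IFNb, 2299 against 568 for NKO_IL4 over WT_IL4, 3827 against 1908 for NKO x RANKL, 1325 against 434 for NKO x PolyIC, 270 against 81 for NKO x IFNb, 484 against 81 for NKO x IL4, 6214 against 3097 for RGFP966_KLA over KLA, 7136 against 4112 for TBK1i_KLA over DMSO_KLA, 90 against 37 for Pgc1b_flox_Cre_Veh over Pgc1b_flox_Veh, 5184 against 3182 for Pgc1b_flox_Cre_KLA over Pgc1b_flox_KLA.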
